A study of Homo sapiens with 12 samples.

Results

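Cholesterol and fatty acid synthesis genes were followed in MCF10A, an immortalized, non-tumorigenic human mammary epithelial cell line, with and without p53. The 37 genes were those of a fixed symbol list, chosen with earlier results of these data known. It covered the mevalonate pathway (8 genes), the steps from squalene to cholesterol (11), the SREBP system (5), sterol transport (5) and fatty acid synthesis (8). All 37 were found among the 22328 rows of the expression table, and 35 reached the RPKM (reads per kilobase of transcript, scaled to sequencing depth) of 0.5 in at least 4 libraries that a test required. No tested gene passed through WT alone, since the lowest RPKM of any of the 35 in any library was 0.632, and the 2 below the limit were ABCA1 and ABCG1.

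The 12 libraries of polyadenylated or rRNA-depleted RNA (the sources differ on which) came from WT MCF10A cells with 4 biological repeats, p53 KO Clone313 with 4 and p53 KO Clone414 with 4. Clone313 and Clone414 were each grown from 1 sorted MCF10A cell after CRISPR-Cas9 knockout of p53, each with its own pair of guide RNAs, while WT was the parental line. All cells had passed fewer than 20 times and grew in medium with 5% horse serum, insulin, EGF, hydrocortisone and cholera toxin. The 4 repeats of a clone share that clone's descent, so the spread between them does not hold the spread between independently edited clones.

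Cells make cholesterol from acetyl-CoA through mevalonate, isoprenoid diphosphates and squalene, and they build fatty acids from the same acetyl-CoA. Genes of both routes are driven by the SREBP transcription factors, which SCAP escorts from the endoplasmic reticulum to the Golgi for cleavage when sterols run low and which the INSIG proteins hold back when sterols are plentiful. p53 is a stress-activated transcription factor, and its links to lipid metabolism have been studied in liver and in tumor cells.

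Promoter sequence was printed for the members with the largest decreases in p53 KO and a CCAAT box, and for the 1 member with a full SREBP consensus. RefSeq (GRCh38.p14) promoters, spanning 250 bases before to 50 after each start, were matched for 32 of the 37 members by symbol. Each stretch reads 5′ to 3′ along the gene's own strand, and capitals mark CCAAT or its reverse complement in the first 6 and the SREBP consensus TCACNCCAC in SREBF2.
TM7SF2, chr11:65111758-65111842, plus strand: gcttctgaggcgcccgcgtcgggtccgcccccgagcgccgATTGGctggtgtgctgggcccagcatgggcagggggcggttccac
STARD4, chr5:111512621-111512705, minus strand: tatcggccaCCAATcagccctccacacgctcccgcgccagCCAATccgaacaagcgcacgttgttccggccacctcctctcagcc
HSD17B7, chr1:162790610-162790694, plus strand: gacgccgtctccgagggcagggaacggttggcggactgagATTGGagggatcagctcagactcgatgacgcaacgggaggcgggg
MVD, chr16:88663132-88663216, minus strand: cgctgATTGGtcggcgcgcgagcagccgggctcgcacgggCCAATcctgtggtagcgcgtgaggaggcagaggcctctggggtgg
MSMO1, chr4:165327595-165327668, plus strand: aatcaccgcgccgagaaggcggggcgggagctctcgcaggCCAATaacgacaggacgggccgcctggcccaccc
HMGCS1, chr5:43313468-43313552, minus strand: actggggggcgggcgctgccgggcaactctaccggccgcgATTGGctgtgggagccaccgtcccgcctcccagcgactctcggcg
SREBF2, chr22:41832932-41833020, plus strand: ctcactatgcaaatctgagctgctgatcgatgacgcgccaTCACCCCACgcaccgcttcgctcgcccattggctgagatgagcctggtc
CCAAT, the core bound by NF-Y, was searched on both strands in every matched promoter of a gene. It stood in at least 1 promoter of 23 of the 32 matched members (71.9%). By the same count per gene, it stood in 43.4% of the 9040 tested genes with a promoter and 39.7% of all 27305 gene symbols. Among the 12 matched members that were lower in p53 KO, 11 held CCAAT (91.7%), and among the 20 others 12 did (60%). TCACNCCAC, whose matches cannot contain CCAAT, was found in SREBF2 alone (3.1%, against 1.53% of tested genes and 1.39% of all symbols). The SREBF2 stretch also holds CCAAT in reverse, left in lower case. CACGTG, an E-box, was in 5 members (15.6%, against 12.8% of tested genes and 8.77% of all symbols). GGGCGG, the GC box, was in 31 (96.9%, against 77.5% of tested genes and 48.3% of all symbols). These matches describe letters in a window and were not tested for a role in the expression differences.

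All 5 p53 target genes examined (CDKN1A, MDM2, BBC3, GDF15 and RRM2B) fell in both clones, and their summed RPKM went from 370 to 437 in WT to 45.4 to 54.1 in p53 KO. All 8 basal mammary markers were expressed, of which 4 fell (KRT5, KRT14, KRT17 and CDH1) and 2 rose (TP63 and LAMB3). Of 7 proliferation genes, 1 fell (PCNA) and 3 rose (CCNB1, BUB1 and MCM2), and the part of either list in the results below was not tested. Of 21 markers of immune and endothelial cells, fibroblasts, adipocytes and hepatocytes, PDGFRA alone had a mean RPKM of at least 0.5. Clone414 library 1 stood apart, with a mean correlation of 0.983 with its own group against 0.988 to 0.994 for the other 11 libraries. The files give no read totals, so the depth of each library is unknown. In this bulk RNA, fewer cells expressing a gene and less RNA per cell cannot be told apart.

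The p53 KO libraries held less RNA of 11 of the 19 sterol synthesis enzymes, with TM7SF2, HSD17B7 and the cholesterol carrier STARD4 changed most. In 8 p53 KO against 4 WT libraries, 15 of the 35 tested members were lower (42.9%, against 14.0% of all 12215 genes tested) and NPC1 was higher (15.6% of all genes were higher), while 19 were not called. A call means a Benjamini-Hochberg adjusted p under 0.05 over all genes in limma on log2(RPKM + 0.5), at any fold. Because the members were chosen with earlier results of these data known, their shares describe the list and do not test for an excess. The members' median log2 fold change was -0.15, against 0.01 over all genes, and 29 of the 35 were below 0. In 11 members every p53 KO library was below every WT library, which held for 9.74% of all genes, and in no member were all p53 KO libraries above, which held for 9.25%. Without Clone414 library 1, 18 members were lower and 2 higher: all 16 calls remained, and NSDHL, PMVK, NPC2 and ELOVL6 were added. The shares of all genes called in that fit were not counted, so whether the gain is particular to the members is unknown.

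**Figure D1:**
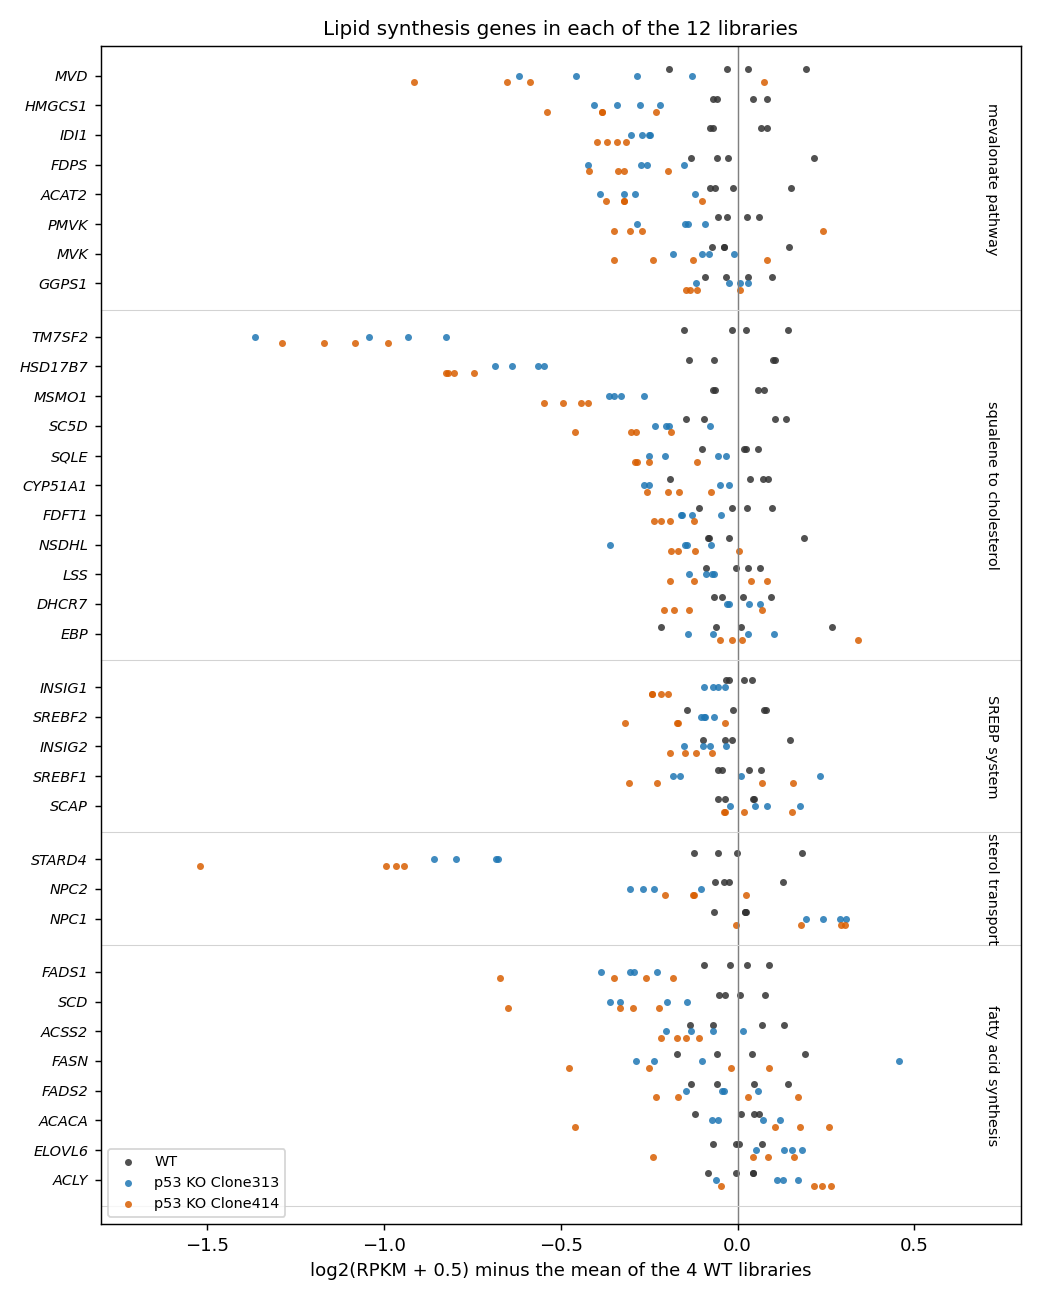
Each point is 1 library of 1 gene, placed by log2(RPKM + 0.5) minus the mean of the 4 WT libraries, for the 35 tested members grouped by role. TM7SF2, STARD4 and HSD17B7 lie farthest to the left, with every p53 KO point below every WT point, and most SREBP system and fatty acid genes overlap WT.

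**Figure D2:**
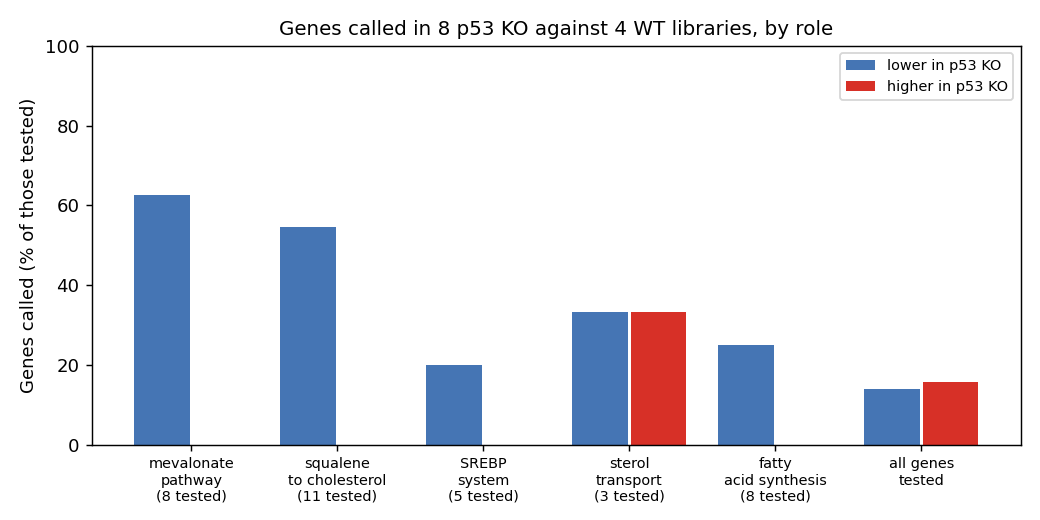
Bars give the percent of tested genes called lower or higher in 8 p53 KO against 4 WT libraries, for each role and for all 12215 genes. The mevalonate genes (62.5%) and the squalene-to-cholesterol genes (54.5%) had a larger share of lower calls than all genes (14.0%). The SREBP system had 20%, and sterol transport holds only 3 tested genes. The members were chosen with earlier results of these data known, so the bars do not test for an excess.

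The mevalonate pathway, which turns acetyl-CoA into the isoprenoid diphosphates, was lower at 5 of its 8 genes in p53 KO (62.5%, against 14.0% of all genes tested). The summed RPKM of the 8 genes ran from 405 to 445 in WT and from 320 to 373 in p53 KO, without overlap. IDI1, the isomerase that makes the allylic isoprenoid unit, had an RPKM of 67.4, 61.3, 60.9 and 68.2 in the WT libraries, 54.0, 52.2, 53.3 and 54.1 in Clone313 and 50.7, 49.7, 51.6 and 48.7 in Clone414. The clones were both below all WT libraries and varied little, and the log2 fold change was -0.31 ± 0.04 (SE; adjusted p = 0.000168). HMGCS1, the synthase that makes HMG-CoA, had 40.7, 37.9, 37.7 and 41.9 in the WT libraries, 33.9, 32.6, 31.1 and 29.7 in Clone313 and 27.1, 33.6, 30.2 and 30.2 in Clone414. No p53 KO library reached the lowest WT library, and the log2 fold change was -0.35 ± 0.06 (adjusted p = 0.000611).
ACAT2, the cytosolic thiolase at the head of the pathway, had an RPKM of 65.6, 66.2, 76.97 and 68.6 in the WT libraries, 52.7, 55.3, 63.7 and 56.5 in Clone313 and 64.6, 55.3, 55.3 and 53.4 in Clone414. The highest p53 KO value, in Clone414 library 1, came close to the lowest WT value, and the log2 fold change was -0.28 ± 0.06 (adjusted p = 0.00503). FDPS, farnesyl diphosphate synthase and the most abundant of these genes by RPKM, had 156, 168, 198 and 164 in the WT libraries, 127, 141, 154 and 143 in Clone313 and 149, 128, 136 and 135 in Clone414. The groups were separated by the gap between 154 and 156 alone, and the log2 fold change was -0.30 ± 0.07 (adjusted p = 0.00504). In GENCODE 29, 18 of the 37 members share exon bases with another gene, and whether counting used strand is not given in the sources used here, so reads of such pairs may be mixed. Among them are HMGCS1, IDI1, FDPS and FDFT1, each with an opposite-strand noncoding RNA, and ACAT2, with SOD2 and TCP1 on the opposite strand. SOD2 and TCP1 moved the other way, with log2 fold changes of 0.29 and 0.15 (adjusted p = 0.0074 and 0.0145).
MVD, which decarboxylates mevalonate diphosphate, went from 23.4 ± 2.66 in WT (SD, n = 4) to 17.4 ± 4.05 in p53 KO (n = 8), a log2 fold change of -0.45 ± 0.15 (adjusted p = 0.0399). Its groups overlapped, since Clone414 library 1 at 24.6 and Clone313 library 1 at 21.3 were both above the lowest WT library at 20.3. The other 3 libraries of Clone414 read 12.1 to 15.4. The MVD call was lost on leaving out any 1 of WT libraries 1, 2 and 4, Clone313 libraries 2 and 3 and Clone414 libraries 3 and 4, and without Clone414 library 1 the log2 fold change was -0.52 (adjusted p = 0.0065). The other 3 genes, the kinases MVK and PMVK and the geranylgeranyl diphosphate synthase GGPS1, were not called. Their log2 fold changes had 95% intervals of -0.28 to 0.03, -0.36 to 0.02 and -0.17 to 0.05, in that order. PMVK read 37.3 in Clone414 library 1 and 24.6 to 29.5 in the other p53 KO libraries, and without that library its log2 fold change was -0.23 (adjusted p = 0.0054).

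Between squalene and cholesterol, 6 of 11 genes were lower in p53 KO (54.5%, against 14.0% of all genes tested). Of the 3 largest decreases of the whole set, 2 lay here. TM7SF2, a sterol reductase that acts after lanosterol demethylation, had an RPKM of 2.71, 2.38, 2.12 and 2.46 in the WT libraries, 0.632, 0.914, 1.03 and 1.14 in Clone313 and 0.877, 0.691, 0.795 and 0.966 in Clone414. Every p53 KO library was under 1.2 RPKM and every WT library above 2, so the mean fell 2.75-fold, from 2.42 ± 0.245 (SD, n = 4) to 0.881 ± 0.171 (n = 8). Its log2 fold change was -1.09 ± 0.10 (adjusted p = 2.18e-06), and it was the only member whose fitted change passed 2-fold with the clones pooled. TM7SF2 shares exon bases with VPS51 on the same strand, and VPS51 itself was at 6.97 RPKM in WT with a log2 fold change of 0.10 (adjusted p = 0.60).
HSD17B7, the ketosteroid reductase of the demethylation steps, had an RPKM of 11.6, 12.2, 13.7 and 13.8 in the WT libraries, 8.49, 8.04, 8.60 and 7.77 in Clone313 and 7.43, 7.03, 7.01 and 7.13 in Clone414. Both clones lay below WT with no overlap, and the mean fell 1.67-fold with a log2 fold change of -0.70 ± 0.07 (adjusted p = 4.95e-06). Its pseudogene HSD17B7P2, with which reads can be shared, went from 2.77 ± 0.470 in WT to 1.41 ± 0.256 in Clone313 and 1.32 ± 0.125 in Clone414 (SD, n = 4 each; log2 fold change -0.81, adjusted p = 3.9e-05), so the division of reads between them is uncertain. MSMO1, the methylsterol monooxygenase, had 67.2, 60.6, 60.9 and 66.4 in the WT libraries, 52.99, 49.4, 50.6 and 49.8 in Clone313 and 43.5, 47.4, 46.7 and 45.1 in Clone414. Again no library overlapped WT, and the log2 fold change was -0.40 ± 0.05 (adjusted p = 0.000105).

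**Figure D3:**
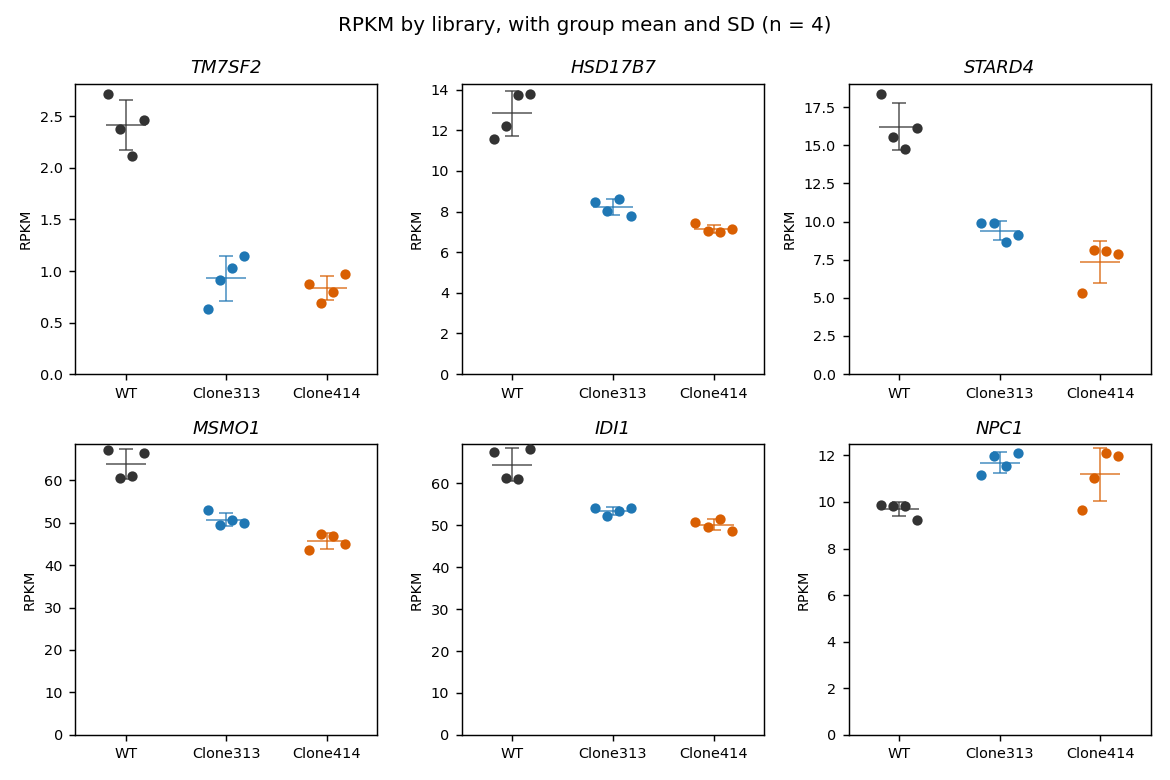
RPKM of 6 members in every library (points), with the group mean and SD (n = 4 per group) and axes from 0. TM7SF2, HSD17B7, STARD4, MSMO1 and IDI1 show all p53 KO libraries below all WT libraries, and NPC1 is higher in 7 of 8 p53 KO libraries than in any WT library.

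FDFT1, squalene synthase, had an RPKM of 99.6, 106, 115 and 109 in the WT libraries, 96.2, 98.3, 104 and 96.0 in Clone313 and 98.5, 91.2, 94.0 and 92.3 in Clone414. The ranges overlapped between 99.6 and 104, and the log2 fold change was -0.16 ± 0.05 (adjusted p = 0.0201). SC5D, the desaturase near the end of the pathway, had 13.2, 11.2, 10.8 and 12.9 in the WT libraries, 11.3, 10.4, 10.1 and 10.3 in Clone313 and 8.57, 10.4, 9.72 and 9.62 in Clone414. It too overlapped WT, by Clone313 library 1, with a log2 fold change of -0.24 ± 0.07 (adjusted p = 0.0201). SQLE, squalene epoxidase and a rate-limiting step, went from 65.1 ± 3.08 to 57.2 ± 4.20 RPKM, a log2 fold change of -0.19 ± 0.06 (adjusted p = 0.0261). These 3 calls were lost on leaving out single WT libraries: 3 or 4 for FDFT1, 1 or 4 for SC5D, and 1, 2 or 4 for SQLE.
The 5 genes not called were LSS, which closes squalene epoxide to lanosterol, CYP51A1, the lanosterol demethylase, NSDHL, a dehydrogenase of the demethylation steps, EBP, the sterol isomerase, and DHCR7, the last reductase. For CYP51A1 the log2 fold change was -0.16 ± 0.06 with an interval of -0.30 to -0.02 (adjusted p = 0.0751), and it was called without WT library 3 (-0.22) or without Clone313 library 1 (-0.18). NSDHL had -0.15 ± 0.07 and an interval of -0.29 to -0.01. The intervals of LSS (-0.19 to 0.05), DHCR7 (-0.18 to 0.08) and EBP (-0.17 to 0.22) all held 0. EBP read 68.9 in Clone414 library 1 and 49.2 to 58.3 in the other p53 KO libraries.
Over the 19 sterol synthesis enzymes of both stages, 11 were lower and 0 higher in limma (14.0% and 15.6% of all genes tested). At an unadjusted p under 0.05, for which the share of all genes was not counted, limma counted 13 lower and 0 higher. The summed RPKM of the 19 enzymes was 822 to 880 in WT and 688 to 752 in p53 KO.

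In the SREBP system, the sensor that switches these enzymes on, 1 of 5 genes was lower (20%, against 14.0% of all genes tested). INSIG1, the sterol-dependent retention factor and itself an SREBP target, had an RPKM of 18.9, 19.0, 19.9 and 19.6 in the WT libraries, 18.9, 18.6, 18.4 and 18.1 in Clone313 and 16.6, 16.8, 16.3 and 16.3 in Clone414. Clone414 was below WT while the highest Clone313 library, at 18.9, lay just under the lowest WT library, and the log2 fold change over both clones was -0.14 ± 0.05 (adjusted p = 0.0441). That call was lost on leaving out any 1 WT library, Clone313 library 4 or Clone414 library 2, 3 or 4. SREBF2, the factor that mainly serves sterol genes, had 21.9, 23.4, 23.3 and 20.0 in the WT libraries, 20.7, 21.1, 20.5 and 20.7 in Clone313 and 17.6, 19.6, 19.6 and 21.5 in Clone414. WT and p53 KO overlapped above 20.0, and the log2 fold change was -0.13 ± 0.06 (interval -0.25 to -0.01; adjusted p = 0.104, and called at -0.18 without WT library 4).
INSIG2, a second retention factor, had 3.77, 3.83, 3.59 and 4.36 in the WT libraries, 3.65, 3.78, 3.59 and 3.44 in Clone313 and 3.33, 3.54, 3.66 and 3.45 in Clone414, and SCAP, the escort, had 8.37, 8.40, 7.90 and 7.79 in the WT libraries, 9.23, 8.40, 7.99 and 8.62 in Clone313 and 9.07, 7.89, 7.90 and 8.21 in Clone414. Both overlapped WT, with intervals of -0.23 to 0.0028 and -0.06 to 0.16. SREBF1, which mainly serves fatty acid genes, was 4.90 ± 0.221 in WT and 4.75 ± 0.718 in p53 KO, and its libraries ranged from 3.87 to 5.85 within the p53 KO group (interval -0.26 to 0.15).

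Among the 3 tested sterol transport genes, 1 fell and 1 rose (14.0% and 15.6% of all genes). STARD4, a soluble carrier of cholesterol between membranes, had an RPKM of 18.4, 15.5, 14.8 and 16.1 in the WT libraries, 9.89, 9.93, 8.69 and 9.10 in Clone313 and 5.31, 8.17, 8.04 and 7.86 in Clone414. All p53 KO libraries were below 10 and all WT libraries above 14, and the mean fell 1.94-fold with a log2 fold change of -0.93 ± 0.13 (adjusted p = 0.000123). Clone414 library 1 was the lowest, and without it the log2 fold change was -0.84. The antisense STARD4-AS1, which overlaps it, had a log2 fold change of -0.36 (adjusted p = 0.0083).
NPC1, the membrane protein that exports cholesterol from lysosomes, had 9.86, 9.83, 9.85 and 9.24 in the WT libraries, 11.1, 11.95, 11.6 and 12.1 in Clone313 and 9.65, 11.04, 12.1 and 11.98 in Clone414. Clone414 library 1 lay among the WT libraries and the other 7 were above them, with a log2 fold change of 0.23 ± 0.06 (adjusted p = 0.00992). NPC1 shares exon bases with RMC1, listed as C18orf8, on the opposite strand, which was also higher (0.13, adjusted p = 0.0266). NPC2, its soluble partner, had 97.3, 94.7, 108 and 96.3 in the WT libraries, 82.1, 80.2, 92.2 and 84.1 in Clone313 and 101, 85.8, 90.7 and 90.8 in Clone414. The groups overlapped in Clone414 library 1, and the log2 fold change was -0.17 ± 0.06, short of the threshold (adjusted p = 0.0505, and 0.0101 at -0.19 without Clone414 library 1). Of the processing alternatives that kept all libraries, 3 called NPC2 lower and 6 did not.
ABCA1 and ABCG1, the efflux pumps for cholesterol, were nearly silent. ABCA1 lay between 0.0103 and 0.0206 RPKM in WT and between 0.00147 and 0.0103 in p53 KO, a difference of -0.032 in mean log2(RPKM + 0.5). WT library 4 and Clone313 library 2 both held 7 of the gene's smallest steps and so tied. With values taken as whole steps, a form chosen after seeing the data, the exact two-sided permutation p was 0.0040, against 0.0020 where library scaling alone split the tie. ABCG1 lay between 0.0397 and 0.0893 in WT and between 0.0099 and 0.0793 in p53 KO, a difference of -0.095 (exact permutation p = 0.0323). Each value was between 1 and 18 times the gene's smallest step in the table, so both differences rest on very low counts. The 2 genes were tested this way with no adjustment, and the ABCG1 p exceeded 0.05 on leaving out any 1 of WT libraries 1, 2 and 3, Clone313 library 1 and Clone414 libraries 2 and 4.

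In fatty acid synthesis, 2 of 8 genes were lower (25%, against 14.0% of all genes tested), and both are desaturases. SCD, which makes monounsaturated fatty acids, had an RPKM of 104, 109, 100 and 101 in the WT libraries, 90.1, 93.8, 80.7 and 82.2 in Clone313 and 65.9, 88.7, 82.2 and 84.4 in Clone414. Every p53 KO library was below every WT library, and the log2 fold change was -0.32 ± 0.08 (adjusted p = 0.00654). FADS1, which acts on polyunsaturated fatty acids, had 11.6, 11.2, 12.2 and 10.6 in the WT libraries, 8.61, 9.14, 9.68 and 9.23 in Clone313 and 6.97, 10.0, 8.85 and 9.46 in Clone414. Here too the groups did not overlap, with a log2 fold change of -0.33 ± 0.08 (adjusted p = 0.00556). FADS1 and its neighbor FADS2, a desaturase of the same pathway, overlap on opposite strands, and FADS2 went from 2.55 ± 0.254 to 2.46 ± 0.273 with an interval of -0.22 to 0.12.
ACSS2, which makes acetyl-CoA from acetate, had 6.03, 7.01, 7.35 and 6.33 in the WT libraries, 5.73, 6.04, 6.74 and 6.32 in Clone313 and 6.15, 5.86, 5.66 and 5.98 in Clone414, and ACLY, which makes it from citrate, had 64.9, 67.1, 67.0 and 61.3 in the WT libraries, 62.4, 71.1, 70.3 and 73.2 in Clone313 and 62.9, 75.5, 76.9 and 78.2 in Clone414. Neither was called, with log2 fold changes of -0.13 ± 0.06 and 0.13 ± 0.06 and intervals of -0.26 to -0.0005 and -0.01 to 0.26. FASN, the fatty acid synthase, ranged from 25.7 to 33.2 in WT, from 23.7 to 39.95 in Clone313 and from 20.7 to 30.9 in Clone414. Its spread within groups exceeded its difference between them, with an interval of -0.40 to 0.19. ACACA, the acetyl-CoA carboxylase, and ELOVL6, the elongase of saturated chains, had intervals of -0.21 to 0.25 and -0.08 to 0.22. In Clone414 library 1 both were the lowest of all 12 libraries, at 6.15 and 22.7, and without it ELOVL6 was called higher (0.12, adjusted p = 0.0372).

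Each clone was also set against WT alone, in a model of the 3 groups. In Clone313, 11 members were lower (10.7% of all genes) and 1 higher (10.8%). In Clone414, 15 were lower (14.6%) and 1 higher (15.2%). Both comparisons use the same 4 WT libraries. Called in each were NPC1, which was higher, and TM7SF2, HSD17B7, MSMO1, IDI1, HMGCS1, FDPS, ACAT2, STARD4, SCD and FADS1, which were lower. The share of all genes called in both clones was not counted, so this overlap cannot be set against it. NPC2 was called in Clone313 alone (-0.23 ± 0.06, against -0.11 ± 0.06 in Clone414). FDFT1, INSIG1, MVD, SC5D and SQLE were called in Clone414 alone.
The direct test of Clone414 against Clone313 called INSIG1, at -0.16 ± 0.04 (adjusted p = 0.0377), and none of the other 34 members (2.22% of all genes were lower and 1.15% higher). At an unadjusted p under 0.05, for which the share of all genes was not counted, limma counted 4 members lower and 0 higher. Those 4 were INSIG1, HSD17B7 (-0.19 ± 0.06), STARD4 (-0.35 ± 0.12) and MSMO1 (-0.15 ± 0.05), with adjusted p of 0.169, 0.177 and 0.177 for the last 3. In INSIG1 all 4 Clone414 libraries (16.3 to 16.8) were below all 4 Clone313 libraries (18.1 to 18.9). The next 4 by p were DHCR7 at -0.12 ± 0.06, IDI1 at -0.09 ± 0.05, NPC2 at 0.12 ± 0.06 and SC5D at -0.13 ± 0.08, all with an adjusted p above 0.5. DHCR7 had 24.7, 25.8, 27.2 and 24.3 in the WT libraries, 26.7, 25.0, 25.1 and 26.1 in Clone313 and 23.1, 22.5, 21.99 and 26.8 in Clone414, so 3 Clone414 libraries were below and 1 was above Clone313.
Without Clone414 library 1, the calls against WT rose to 15 in Clone313 and 20 in Clone414, with none lost. Here and in the other fits with a library left out, the shares of all genes were not counted. The added calls in Clone414 were PMVK (-0.31), MVK (-0.24), ACLY (0.24) and ACACA (0.18), and those in Clone313 were MVD, PMVK and ELOVL6, since the 3-group model shares 1 estimate of the spread. The Clone313 count of lower members fell from 11 to 6 without WT library 3, Clone313 library 1 or Clone313 library 4 and to 7 without Clone313 library 2. Its 1 higher member, NPC1, was lost without WT library 4. In Clone414, NPC1 was lost on leaving out any 1 library except Clone313 library 1 and Clone414 library 1, and INSIG1 between the clones was lost on leaving out any 1 except WT library 3 and Clone414 library 1.

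**Figure D4:**
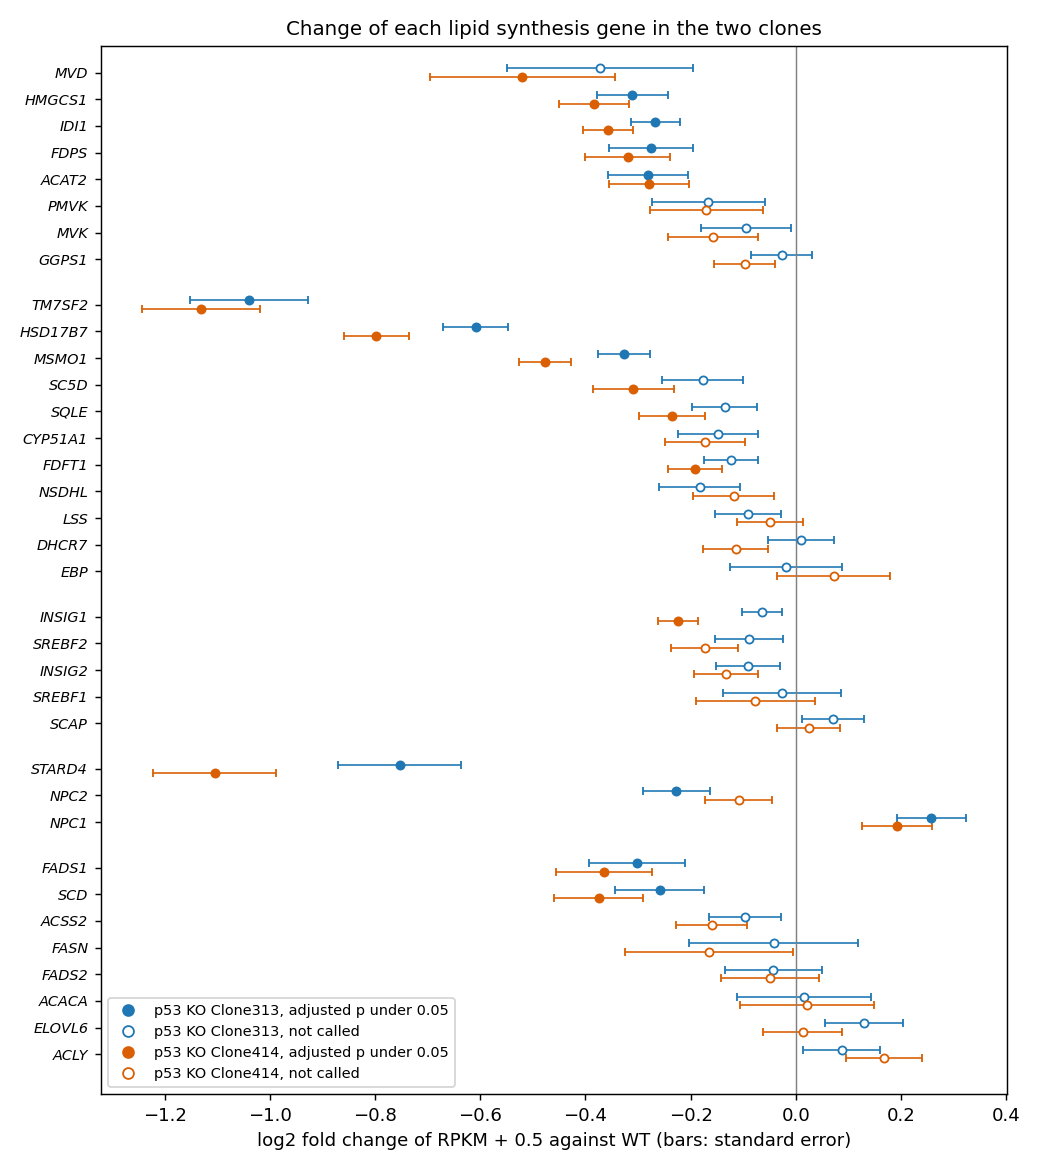
Points give the log2 fold change of RPKM + 0.5 of each tested member in Clone313 (blue) and Clone414 (orange) against WT, with standard errors, and filled points have an adjusted p under 0.05. STARD4 (-0.75 and -1.11), HSD17B7 (-0.61 and -0.80) and MSMO1 (-0.33 and -0.48) lie farther left in Clone414, and INSIG1 (-0.06 and -0.22) is the pair that differed in the direct test.

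Neighboring genes of the same pathways were taken from 9 lists of 91 genes, of which 88 were in the table and 80 were tested. In p53 KO against WT, 23 of these were lower and 15 were higher (14.0% and 15.6% of all genes). In sterol synthesis and uptake, 4 of 8 were lower and 2 higher. ACAT1, the mitochondrial thiolase, was lower (-0.36, adjusted p = 0.0001). The nuclear envelope protein LBR, which has the same reductase activity as TM7SF2, was not called (0.07, interval -0.06 to 0.20).
Genes of SREBP processing and turnover split, with 2 of 10 lower and 3 higher. FBXW7, the ubiquitin ligase subunit that marks nuclear SREBP for degradation, fell from 8.76 ± 0.776 to 3.95 ± 0.247 RPKM (SD, n = 4 and 8; log2 fold change -1.06, adjusted p = 2.3e-08). The ubiquitin ligase RNF145 (0.33) was higher. Of 6 tested LXR and oxysterol genes, 0 were called in limma and 0 had an unadjusted p under 0.05.
In sterol storage and lysosome, 3 of 8 were lower and 3 higher: the lysosomal lipase LIPA was lower (-0.32), and the cholesterol esterifying enzyme SOAT1 (0.29) and the sterol transporter GRAMD1B (0.67) were higher. Isoprenoid use had 4 of 11 lower and 3 higher, with the coenzyme Q enzyme COQ2 (-0.29), the farnesyltransferase subunit FNTB (-0.24) and RABGGTA, a subunit of the enzyme that prenylates Rab proteins, (-0.22) leading the lower ones by adjusted p.
Other fatty acid elongation and desaturation genes had 2 of 8 lower, SCD5 (-0.68) and FADS3 (-0.68). The clones differed at 3 of these 8 genes, and the following pair was chosen after its values were seen. HSD17B12, a reductase of fatty acid elongation, was higher in Clone313 (0.29, adjusted p = 0.0067) and lower in Clone414 (-0.46, adjusted p = 0.0002), a difference of -0.75 ± 0.06 (adjusted p = 1.3e-05). ELOVL5, an elongase, was lower in Clone313 (-0.38, adjusted p = 0.0014) and 0.00 in Clone414, a difference of 0.39 ± 0.07 (adjusted p = 0.0047). SCD5 was lower in Clone414 than in Clone313 by -0.28 (adjusted p = 0.0421). In acetyl-CoA, malonyl-CoA and NADPH supply, 3 of 9 were lower: IDH1 (-0.38), CBR4 (-0.32) and PGD (-0.16), of which IDH1 and PGD make NADPH. With the clones pooled, 0 genes of either list were higher in limma, and 0 were at an unadjusted p under 0.05. Glycerolipid synthesis had 2 of 11 lower and 2 higher, with LPIN1, a phosphatidate phosphatase, lower (-0.56), its relative LPIN2 higher (0.30) and DGAT2, the triglyceride synthase, higher (0.68). Fatty acid oxidation had 3 of 9 lower and 2 higher, with the carnitine palmitoyltransferases CPT2 lower (-0.41) and CPT1A higher (0.22), while CPT1B was not called (0.12, interval -0.03 to 0.27). The dehydrogenase ACADM was lower (-0.30).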

How the data were processed

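The authors deposited 1 table of RPKM per gene symbol. The submitters' processing notes name Trimmomatic and hg19; aligner, counter, annotation and strand were not stated. RPKM holds no read totals, so depth is unknown. For all 37 members the values were whole multiples of 1 step per gene (tolerance 0.002), but the implied library totals differed by only 0.123%, so the values were taken as scaled and no count test was run, although the study used one. Instead, log2(RPKM + 0.5) was fitted with limma 3.58.1 (intensity trend, R 4.3.3) on 12215 genes that reached 0.5 RPKM in 4 or more libraries, with Benjamini-Hochberg adjustment. This scale understates changes of low genes. The main model set 8 p53 KO against 4 WT libraries, pooled as in the study, and a 3-group model compared the clones. The 2 members under the filter got an exact permutation test. The fit was tested on simulated data with independent libraries and no difference between the clones. That simulation therefore cannot speak to the pooling of repeats that share a clone. Columns p53KO1 and p53KO2 are Clone313 and Clone414. The 4 rows that share a symbol were dropped, and 26 symbols had become dates. HACD symbols were not matched, and 2 listed genes matched by an older symbol. Alternatives were other pseudocounts (0.1, 1), filters (none, 1 RPKM), normalizations (quantile, median centring), a replicate block, no trend, the mean of the clones, and each library left out; whole steps for the genes under the filter were added after seeing the data. Values in every library are given for up to 4 members of each role with the smallest p and up to 8 with the smallest p between clones. Of each other list up to 3 genes called in p53 KO against WT are named. LBR, CPT1B, HSD17B12 and ELOVL5, not called in that comparison, are named besides. Some genes under this rule, and the level of the targeted gene, are not reported here. The members and lists were chosen with earlier results of these data known.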

Additional observations from a re-analysis of the deposited data

Results flagged for a closer look

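Among 111 groups of 4 libraries examined, 7 held 1 library apart from the other 3 by Dixon's criterion, where chance gives about 1 in 20 groups. Of these 7, 4 were in Clone414 library 1: PMVK at 37.3 RPKM, ACAT2 at 64.6 and EBP at 68.9 were above the rest of the clone, and STARD4 at 5.31 was below. MVK stood high in WT library 3, at 12.7 RPKM. In WT library 4, NPC1 was low at 9.24 RPKM and ABCG1 was low at 0.0397 RPKM. INSIG1 differed between the clones, with a log2 difference of -0.16 (Clone414 minus Clone313, limma) and all 4 Clone414 libraries below all 4 Clone313 libraries.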

How the results depend on the processing

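Across the alternatives, none of the 16 members called in p53 KO against WT changed sign. Of the values of single members, 698 stayed on their side of the threshold, 26 lost the call and 11 gained it. With 1 library left out, for which the shares of all genes were not counted, members lower in p53 KO against WT numbered 11 to 18 and higher 1 to 2. In Clone313 lower members numbered 6 to 13 and higher 0 to 2, in Clone414 lower 14 to 17 and higher 0 to 3, and between the clones lower 0 to 1. The difference of ABCG1 was then -0.126 to -0.083 and its exact p exceeded 0.05 in 6 of 12 cases. In Clone414, 0 members were higher with no filter, with quantile normalization or with the replicate block. Between the clones, 0 were lower with median centring or with the replicate block. For MVD the call was also lost with no filter (-0.45, adjusted p = 0.067), for SQLE with quantile normalization (-0.18, 0.066) and for INSIG1 with no trend (-0.14, 0.054); the cause was not tested. The labels number the repeats, and the main model did not pair libraries by number. Same-numbered libraries of different groups correlated at -0.19 to 0.51 in their deviations, over 0.1 in 6 of 12 pairs. Yet 8 of 12 libraries were closest to a library of their own number. Whether libraries of 1 number share a batch was not tested. With the replicate block, 15 members were lower and 1 higher in p53 KO against WT (INSIG1 lost its call, adjusted p = 0.080, and NPC2 gained it, 0.047), and 12 were lower in Clone313. Depth is unknown, so the lowest genes (ABCA1, ABCG1) limit what can be said.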
